A study of Homo sapiens with 4 samples.

Results

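The 10 genes PHOX2A, ISL1, HAND2, GATA2, GATA3, TBX2, TFAP2B, KLF7, SATB1 and EYA1 encode nuclear regulators of the adrenergic state of neuroblastoma. They were taken as a literature list, with the brightest probe set of each gene, from 17687 named genes measured in the series. The list was chosen with earlier results of these data known. All 10 had 1 probe set each. RNA was measured on 4 whole-transcript arrays in SK-N-AS, a human neuroblastoma line in long-standing culture. Treated cells received BG-P400-TAT at 30 µM and were harvested after 48 h (2 arrays), while untreated cells were kept with phosphate-buffered saline over the same time (2 arrays). The series title describes the compound as aimed at norepinephrine transporter function and at the thyrointegrin αvβ3. All arrays came from 1 cell line. The design text calls the arrays of a group biological replicates without saying how their cultures were kept apart, so the spread behind each p-value may be technical.

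Neuroblastoma arises from the sympathoadrenal lineage of the neural crest, and its cells occur in an adrenergic and a mesenchymal state. The adrenergic state is held by a core regulatory circuitry, in which lineage transcription factors bind the enhancers of their own genes and of each other and drive the genes of noradrenergic neurons. SK-N-AS is known as a line that lacks MYCN amplification and carries many mesenchymal traits, so the level of these factors in it bears on which part of the circuitry is transcribed there.

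Promoter sequence is shown for 4 members: PHOX2A and GATA2, which had the largest differences between groups, HAND2, which starts next to an antisense gene that was also measured, and ISL1, which varied most between the untreated arrays. The windows run from 250 bases before to 50 bases after an annotated start, read 5′ to 3′ on the gene's strand, and come from RefSeq (GRCh38.p14). Capitals mark matches to 6 short motifs of the members' own families, searched on both strands: GATAA for GATA factors, CATCTG for HAND2 with its E-protein partners, the palindromic homeodomain motif of PHOX2 factors, GCCNNNGGC for AP-2 factors, AGGTGTGA for T-box factors and GGGCGTGG for Krüppel-like factors.
PHOX2A (chr11:72244127-72244426, minus strand): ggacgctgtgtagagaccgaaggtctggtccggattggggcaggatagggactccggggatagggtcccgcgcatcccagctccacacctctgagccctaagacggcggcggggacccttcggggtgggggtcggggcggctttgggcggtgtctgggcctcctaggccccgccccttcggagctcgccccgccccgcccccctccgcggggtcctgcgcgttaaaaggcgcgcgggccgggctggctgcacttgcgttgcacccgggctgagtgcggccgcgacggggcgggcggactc
GATA2 (chr3:128488481-128488780, minus strand, 1 of 2 listed windows): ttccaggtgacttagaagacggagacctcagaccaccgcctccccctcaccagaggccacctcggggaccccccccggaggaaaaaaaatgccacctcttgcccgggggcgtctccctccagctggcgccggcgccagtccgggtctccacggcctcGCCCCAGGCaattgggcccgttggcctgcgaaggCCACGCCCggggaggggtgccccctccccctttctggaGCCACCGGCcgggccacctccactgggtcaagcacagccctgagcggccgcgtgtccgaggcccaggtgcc
HAND2 (chr4:173530180-173530479, minus strand): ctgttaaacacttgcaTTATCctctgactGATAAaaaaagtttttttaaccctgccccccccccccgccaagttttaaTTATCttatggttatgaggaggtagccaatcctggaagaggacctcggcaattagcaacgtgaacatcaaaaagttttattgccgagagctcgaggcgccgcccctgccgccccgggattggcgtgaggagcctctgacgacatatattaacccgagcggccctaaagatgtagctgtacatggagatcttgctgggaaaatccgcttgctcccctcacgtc
ISL1 (chr5:51383198-51383497, plus strand): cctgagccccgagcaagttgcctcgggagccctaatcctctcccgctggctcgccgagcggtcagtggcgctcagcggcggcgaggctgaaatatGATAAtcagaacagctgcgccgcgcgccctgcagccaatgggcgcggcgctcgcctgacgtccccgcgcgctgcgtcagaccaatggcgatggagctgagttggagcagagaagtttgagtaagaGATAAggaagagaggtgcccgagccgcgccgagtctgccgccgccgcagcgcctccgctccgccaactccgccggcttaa

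The windows differed in which letters they held. The HAND2 window had 3 GATAA matches, beginning at positions -234, -221 and -172 from the start, and the ISL1 window had 2. The GATA2 window had 2 AP-2 matches and 1 Krüppel-like match, whose letters did not overlap. The PHOX2A window held none of the 6 motifs and is printed without capitals. Windows of 8 members were matched, 20 in all, and TBX2 and EYA1 had none. GATA3, KLF7, SATB1 and GATA2 had several windows each, so the counts are of windows and not of members. GATAA stood in 4 of these 20 (KLF7, HAND2, ISL1 and GATA3) and in 22.7% of the 35116 windows of the table. GCCNNNGGC stood in 6 of the 20, all of them windows of SATB1, GATA2 or GATA3, and in 23.2% of all windows. CATCTG stood in 3 of the 20 (14.7% of all windows) and GGGCGTGG in 1 (5.02%), while AGGTGTGA (0.98%) and the PHOX2 motif (0.365%) stood in none. These matches describe letters only.

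All 10 genes were above the negative controls in untreated cells. They were chosen with earlier results of these data known, so this count is a description and not an independent result. The limit was the 95th percentile of 612 negative-control probe sets, a log2 expression of 7.21 for the mean of the untreated arrays, and 47.4% of all named genes exceeded it. Each member also exceeded each array's own limit on all 4 arrays. PHOX2A was close to that limit on untreated replicate 2, at 7.80 against 7.64. The distance of the untreated mean to the limit ran from 0.75 for PHOX2A and 1.30 for SATB1 to 6.40 for KLF7, 6.64 for EYA1 and 6.71 for TBX2 on the log2 scale. With the 99th percentile in place of the 95th, 8 of the 10 were above, and PHOX2A and SATB1 were not. Signals of different probe sets depend on their probes, so these distances say how clearly each gene was measured and do not rank the genes by transcript number.

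**Figure D1:**
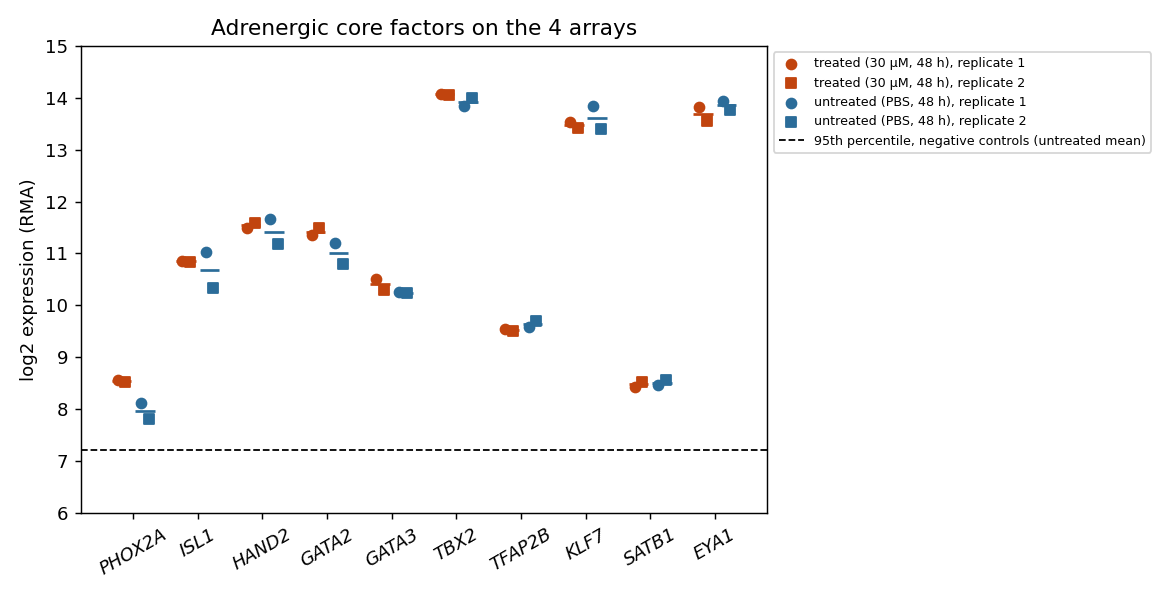
Log2 expression (vertical axis, RMA values) of the 10 genes on each array, with treated arrays to the left of untreated arrays, circles for replicate 1, squares for replicate 2 and short bars for group means (n = 2 each). The dashed line is the negative-control limit of 7.21 for untreated cells, and every point lies above it.

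Between treated and untreated cells no member passed the test. The count was 0 of 10 at a limma adjusted p under 0.05, where p-values were adjusted over all 21448 probe sets, of which 0 passed (0%), and the smallest adjusted p among the members was 0.948. In RNA from whole cultures, fewer cells of a kind and less RNA per cell cannot be told apart. At an unadjusted p under 0.05 in the same fit, 1 member was higher in treated cells (PHOX2A) and 0 were lower. Among all probe sets tested 2.2% were higher and 2.88% lower at that level, and among the 9886 above the negative controls in either group the shares were 1.98% and 0.647%. The difference was positive for 6 members and negative for 4, where 58.9% of the probe sets above the negative controls were positive. The members' median was 0.13 on the log2 scale. Among all 8664 named genes above the negative controls in either group, the median was 0.042. For 9 of the 10 members the 95% confidence interval of the difference lay within 2-fold in both directions, as it did for 95.1% of the probe sets above the negative controls.

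**Figure D2:**
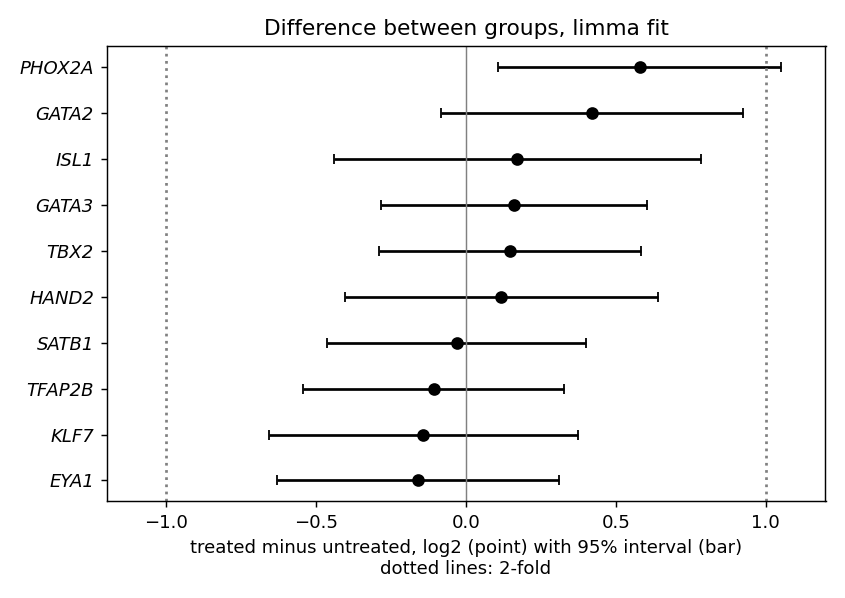
Treated minus untreated log2 difference (points) with 95% intervals of the limma fit (bars) for the 10 genes, dotted lines marking 2-fold. The interval of PHOX2A, from 0.11 to 1.05, is the one that leaves out 0 and the one that reaches past 2-fold.

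The homeodomain factors are given first. PHOX2A activates the genes of noradrenaline synthesis in sympathetic neurons. Its log2 expression was 8.57 and 8.51 on the treated arrays, against 8.12 and 7.80 on the untreated arrays. The groups did not overlap, and the treated arrays lay closer together than the untreated ones. The log2 difference was 0.58 ± 0.20 (SE), or 1.49-fold with an interval from 1.08- to 2.07-fold, at a limma adjusted p of 0.948. An absolute difference of at least this size was found in 1.52% of the probe sets above the negative controls. That share is for single probe sets, while PHOX2A had the largest difference among the members. It does not say how often the largest of a list reaches this size. PHOX2A was also the member nearest the negative-control limit in untreated cells. The difference of PHOX2A was 0.42 without untreated replicate 2 and 0.73 without untreated replicate 1.

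ISL1, a LIM-homeodomain factor of sympathetic and motor neurons, stood at 10.86 and 10.84 on the treated arrays, against 11.03 and 10.34 on the untreated arrays. Both treated values lay between the untreated ones, so the groups overlapped. The log2 difference of ISL1 was 0.17 with an interval from -0.44 to 0.78 (limma adjusted p = 0.988), and it turned to -0.17 without untreated replicate 2. The untreated arrays of ISL1 differed by 0.69, the widest gap within a group among the members.

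HAND2, a basic helix-loop-helix factor needed for noradrenergic differentiation, had values of 11.50 and 11.59 in treated cells, against 11.66 and 11.19 in untreated cells. The treated values lay inside the untreated range. Its log2 difference was 0.12 with an interval from -0.41 to 0.64 (limma adjusted p = 0.997), and it was -0.12 without untreated replicate 2. HAND2-AS1, a long noncoding RNA gene on the opposite strand, has a RefSeq start 229 bases from that of HAND2 and is read away from it, and another start 1629 bases away lies on the other side. HAND2-AS1 stood at 10.81 and 10.91 on the treated arrays, against 10.91 and 10.51 on the untreated arrays. For both genes untreated replicate 2 gave the lowest value. The log2 difference of HAND2-AS1 was 0.15 (interval -0.35 to 0.65), and -0.050 without untreated replicate 2. Whether probes of the pair share sequence was not examined.

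GATA2 and GATA3 are zinc-finger factors that bind the GATA sequence, and GATA3 is required for sympathetic neurons in mice. GATA2 stood at 11.35 and 11.49 on the treated arrays, against 11.20 and 10.80 on the untreated arrays. The groups did not overlap, with untreated replicate 2 lowest. The log2 difference of GATA2 was 0.42 ± 0.21 (SE), or 1.34-fold with an interval from 0.944- to 1.90-fold, at a limma adjusted p of 0.948. It ranged from 0.22 to 0.62 with an array left out. GATA3 stood at 10.51 and 10.30 on the treated arrays, against 10.25 and 10.24 on the untreated arrays. Here the untreated arrays were nearly equal and the treated ones spread, without overlap. The log2 difference of GATA3 was 0.16 with an interval from -0.28 to 0.61 (limma adjusted p = 0.985), and it was 0.058 without treated replicate 1 and 0.26 without treated replicate 2.

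TBX2, a T-box repressor of cell-cycle inhibitor genes, had values of 14.08 and 14.06 in treated cells, against 13.84 and 14.00 in untreated cells. The groups did not overlap, though the nearest arrays were 0.06 apart. Its log2 difference was 0.15 with an interval from -0.29 to 0.58 (limma adjusted p = 0.985), and it was 0.065 without untreated replicate 1 and 0.23 without untreated replicate 2. TFAP2B, an AP-2 factor of sympathetic development, stood at 9.55 and 9.51 in treated cells, against 9.57 and 9.71 in untreated cells. It was the 1 member whose treated arrays both lay below both untreated arrays. Its log2 difference was -0.11 with an interval from -0.54 to 0.33 (limma adjusted p = 0.996), and it was -0.18 without untreated replicate 1 and -0.041 without untreated replicate 2.

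KLF7, a Krüppel-like factor of neurite growth, stood at 13.54 and 13.41 on the treated arrays, against 13.84 and 13.40 on the untreated arrays. The untreated pair enclosed the treated pair, and the log2 difference of -0.14 (interval -0.66 to 0.37) turned to 0.076 without untreated replicate 1. SATB1, an organiser of chromatin that binds AT-rich DNA, had values of 8.43 and 8.53 in treated cells, against 8.47 and 8.56 in untreated cells. All 4 arrays lay within 0.12 for this gene, the narrowest range among the members. The log2 difference of SATB1 was -0.031 with an interval from -0.46 to 0.40, so it was bounded by 0.725- and 1.32-fold. EYA1, a phosphatase and co-activator of sine oculis homeodomain factors, stood at 13.83 and 13.56 in treated cells, against 13.94 and 13.77 in untreated cells. The groups of EYA1 overlapped, and its log2 difference was -0.16 with an interval from -0.63 to 0.31 (-0.29 without treated replicate 1, -0.026 without treated replicate 2).

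Across the members, 4 had treated arrays both above the untreated ones (PHOX2A, GATA2, GATA3 and TBX2) and 1 had them below. Over all probe sets that exceeded the negative controls such separation was found upwards in 21.2% and downwards in 11.5%. Untreated replicate 2 gave the lowest of the 4 values for 6 members (PHOX2A, ISL1, HAND2, GATA2, GATA3 and KLF7), and it was the lowest array for 38.4% of the probe sets above the negative controls. The members' median log2 expression was 11.11 and 11.17 on the treated arrays, against 11.11 and 10.57 on the untreated arrays. The last of these medians lay between ISL1 and GATA2, whose deviations from their own 4-array means were -0.43 and -0.41 on that array. The members did not fall there as a set. Their deviations on untreated replicate 2 ran from -0.45 (PHOX2A) to 0.12 (TFAP2B), and those of SATB1 (0.060) and TBX2 (0.007) were positive too. Without untreated replicate 2, the median difference of the members was -0.014 and 5 of 10 were positive. That array also stood apart over all probe sets, with median absolute log2 differences of 0.237 to 0.244 to the other arrays, while pairs without it differed by 0.193 to 0.208. It had the highest negative-control limit (7.64, with 7.19 and 7.25 on the treated arrays and 7.31 on the other untreated array), and the part of this in the members' differences was not tested.

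**Figure D3:**
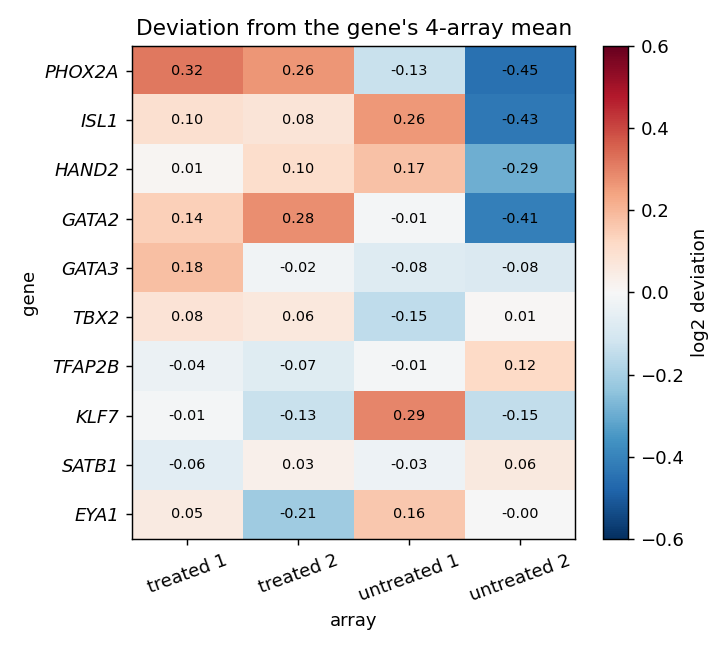
Deviation of each gene from its own mean over the 4 arrays, on the log2 scale, with genes in rows and arrays in columns, treated arrays on the left. Untreated replicate 2 is the lowest array for 6 of the 10 genes, beside 38.4% of all probe sets above the negative controls. For PHOX2A, GATA2, GATA3 and TBX2 both untreated arrays lie below both treated arrays, as for 21.2% of those probe sets.

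Other regulators of the adrenergic state were read from a list of 16, of which 13 were measured and 7 were above the negative controls in untreated cells. None of the 13 passed the test (limma adjusted p of 0.948 or more), and 6 differences were positive and 7 negative, with a median of -0.0039. For the 8 above the limit in either group, 6 differences were positive and 2 negative, with a median of 0.11. MYCN, the oncogene amplified in many neuroblastomas, was below the limit on all 4 arrays, at 3.87 and 3.39 on the treated arrays, against 4.17 and 3.84 on the untreated arrays. HAND1, the relative of HAND2, stood near the limit, at 7.24 and 7.39 on the treated arrays, against 7.12 and 7.17 on the untreated arrays. The treated values were above their own arrays' limits (7.19 and 7.25), and the untreated values below theirs, which were higher (7.31 and 7.64). The log2 difference of HAND1 was 0.17 (interval -0.27 to 0.61; limma adjusted p = 0.979). LMO1, a LIM-only cofactor, had a log2 difference of 0.29 (interval -0.17 to 0.75), and SOX11, a SoxC factor, 0.27 (interval -0.22 to 0.76). With an array left out, LMO1 ranged from 0.16 to 0.42 and SOX11 from 0.095 (no untreated replicate 2) to 0.44.

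Partners of the members were measured for 17 of 20 genes, with 13 above the negative controls in untreated cells and none passing the test. TCF3, an E protein that pairs with HAND2, had a log2 difference of 0.16 (interval -0.27 to 0.59). The difference was 0.24 (interval -0.25 to 0.73) for the corepressor gene CTBP1, and -0.25 (interval -0.73 to 0.22) for KCTD15, an inhibitor of AP-2 factors. Without untreated replicate 1 they were 0.049 for CTBP1 and -0.089 for KCTD15. The partners' median was 0.027, with 10 positive and 7 negative differences.

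Genes that the adrenergic state is known to drive, listed as 20 effectors with 19 measured, were split in level. In untreated cells 14 of the 19 were above the negative controls. TH, which makes L-DOPA in the first step of catecholamine synthesis, was below the limit on every array, at 5.35 and 5.32 in treated cells, against 5.41 and 5.61 in untreated cells. DBH, which converts dopamine to noradrenaline, was likewise below it, at 5.48 and 5.42 in treated cells, against 5.52 and 5.30 in untreated cells. DDC, the decarboxylase between these steps, was far above the limit, at 11.76 and 11.53 in treated cells, against 11.63 and 11.84 in untreated cells. None of the 19 passed, with 8 positive and 11 negative differences and a median of -0.018. GCH1, which supplies the TH cofactor, had a log2 difference of 0.35 (interval -0.16 to 0.86). SCG2, a granin of secretory granules, had 0.23 (interval -0.32 to 0.78; -0.014 without untreated replicate 2), and STMN2, a microtubule regulator of neurites, -0.18 (interval -0.62 to 0.26). Without untreated replicate 2 the difference was 0.20 for GCH1 and -0.27 for STMN2.

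Relatives of the members in the same gene families were mostly dim. Of 25 listed, 22 were measured and 5 were above the negative controls in untreated cells. GATA4, the relative of GATA2 and GATA3 known from heart and endoderm, was among these 5, at 10.90 and 10.81 in treated cells, against 10.67 and 10.70 in untreated cells. Its groups did not overlap, and the log2 difference was 0.17 (interval -0.26 to 0.60; limma adjusted p = 0.979). KLF6 had a log2 difference of 0.40 (interval -0.067 to 0.86) and EYA3, which exceeded the array's own limit on 3 of 4 arrays, 0.12 (interval -0.31 to 0.55). None of the 22 passed the test.

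The opposing mesenchymal state was read from 26 regulators, of which 25 were measured and 18 were above the negative controls in untreated cells. None of the 25 passed the test. Their median difference was 0.14, with 17 positive and 8 negative. Over all 17687 named genes the median was -0.00068, with 8816 positive and 8871 negative differences. For the 18 above the limit, 12 differences were positive and 6 negative, where 58.9% of all probe sets above the negative controls were positive. The median of these 18 was 0.13, beside the 0.13 of the adrenergic core factors, all of them above the limit. Untreated replicate 2 was the lowest array for 10 of these 18, or 55.6%, beside 38.4% of all probe sets above the negative controls. YAP1, a co-activator of the Hippo pathway, had a log2 difference of 0.42 (interval -0.021 to 0.86), and TWIST1, a helix-loop-helix factor of mesenchymal cells, 0.40 (interval -0.071 to 0.87). FOSL1, an AP-1 subunit, had 0.45 (interval -0.13 to 1.03). These 3 were named for having the smallest p among the list's genes above the limit. With an array left out, the difference was 0.34 to 0.50 for YAP1, 0.24 (no untreated replicate 2) to 0.55 (no untreated replicate 1) for TWIST1, and 0.15 to 0.74 without the same arrays for FOSL1. In the whole list, the treated arrays both lay above the untreated ones for 6 of 25 genes and below them for 1. Over all 21448 probe sets such separation was found upwards in 16.4% and downwards in 16.8%. Among probe sets above the negative controls these shares were 21.2% and 11.5%.

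**Figure D4:**
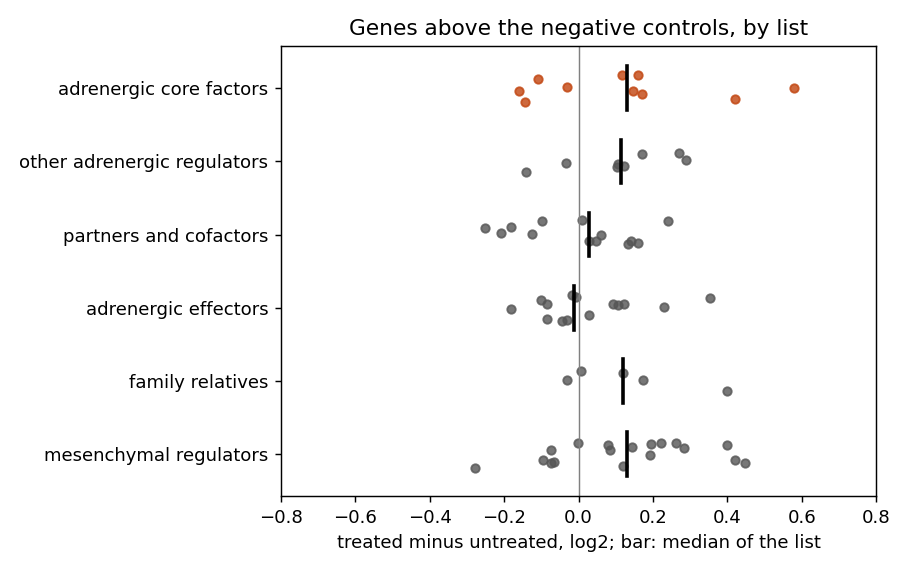
Treated minus untreated log2 differences (horizontal axis) of single genes above the negative controls in either group, 1 row per list, with the 10 adrenergic core factors in the top row and black bars at the medians. The median bar is at 0.13 for the adrenergic core factors and at 0.13 for the 18 mesenchymal regulators above the limit.

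Markers were used to check the labelled cell type. Of 10 adrenergic markers measured, 5 are members described above and give no separate check. Of the other 5, CHGA, CHGB and DDC were above the negative controls in each group, and TH and DBH were not. Of the mesenchymal markers 7 of 7 were above them, where 47.4% of all named genes were in untreated cells. Apart from FN1 and VIM, these markers are among the mesenchymal regulators described above and give no separate check. The 5 adrenergic markers outside the members had mean log2 values of 8.80 to 8.90 on treated and 8.83 to 8.99 on untreated arrays. Over all 10 measured, members included, the means were 9.68 to 9.73 on treated and 9.45 to 9.72 on untreated arrays. The mesenchymal markers had means of 10.60 to 10.62 on treated and 10.15 to 10.46 on untreated arrays. Signals depend on probes, and TH and DBH are in both adrenergic means, so these means do not rank the states. None of 6 Schwann cell markers was above the limit on any array, with means of 3.79 to 3.83 in treated and 4.09 to 4.13 in untreated cells. Of 7 immune and endothelial markers 1 was above it. That was the probe set annotated to PTPRC, which encodes the leukocyte phosphatase CD45, at 12.71 and 12.57 in treated cells, against 12.75 and 12.80 in untreated cells. Whether this probe set is specific to PTPRC could not be checked. The other immune and endothelial markers, CD3E, CD14 and ITGAM among them, were below the limit on all arrays.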

How the data were processed

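Total RNA was isolated by Trizol and labelled with biotin as sense target, per the labels' protocols. The authors deposited 1 log2 expression value per probe set and array. RMA is listed in the submitters' processing notes beside the software Transcriptome Analysis Console 4.0.1.36. RMA equalises the distributions of arrays, so a shift shared by most genes would be removed. The log2 scale was read from the values. No genome build is given for the probe sets, and coordinates printed here are RefSeq's.

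Of 24351 probe sets, 2903 controls were left out and 21448 tested with no filter on dim signals. Genes were named by the platform annotation. Where a symbol had several probe sets (20 symbols), the brightest was used. Groups were compared in R 4.3.3 with limma 3.58.1 (lmFit, then eBayes), group being the only term, with two-sided tests, Benjamini-Hochberg adjustment at 0.05, 95% intervals, and 2 residual and 4.90 prior degrees of freedom. An exact permutation test of 2 against 2 arrays cannot give a p below 0.333. The number of arrays limits the precision.

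The members and lists were chosen with earlier results of these data known. Named were all members, MYCN, HAND1 and some regulators not reported here, and from each list up to 3 genes with the smallest p among those above the negative controls in a group mean. Others (TH, DBH, DDC, CHGA, CHGB, FN1, VIM, CD3E, CD14 and ITGAM) come from the cell type markers. No gene was ranked by likeness to the members' pattern, since 4 arrays are too few. Alternatives were cyclic loess, quantile normalization and median centring, 2 filters against dim signals, robust moderation with a trend, a block for the replicate number, leaving out each array, means over probe sets, and other percentiles of the negative controls.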

Additional observations from a re-analysis of the deposited data

How the results depend on the processing

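No member and no other probe set passed under any alternative tried, with the smallest limma adjusted p, 0.331, found without untreated replicate 1. A fit without an array leaves 1 group with a single array, assumed to vary like the other group, so its p-values rest on the spread of that other group. The number of probe sets at an unadjusted p under 0.05 was 1089. Leaving out untreated replicate 1 gave 2444, and leaving out treated replicate 2 gave 690. Among single genes, only the omission of an array turned a sign: 5 of 120 values of members and 2 of 204 values of the 17 other genes named by the rule did so. Genes given by levels alone were not tried. With an array left out, the log2 differences ran from -0.12 (no untreated replicate 2) to 0.35 for HAND2, from -0.17 (no untreated replicate 2) to 0.52 for ISL1, from -0.014 (no untreated replicate 2) to 0.48 for SCG2 and from -0.050 (no untreated replicate 2) to 0.35 for HAND2-AS1. They ran from -0.077 to 0.015 for SATB1, positive without treated replicate 1 or untreated replicate 2 (0.013), and from -0.36 to 0.076 (no untreated replicate 1) for KLF7. The cause was not tested. The median difference of the members was -0.014 to 0.12 with an array left out, the lowest without untreated replicate 2, and 0.10 after quantile normalization. All 10 members were above the negative controls in untreated cells under every alternative run except the 99th percentile (8 of 10). Replicate numbers are shared by the groups, but the deviations of same-numbered arrays had a correlation of -0.00085, and the samples share only a number. With the replicate number as a block, 0 probe sets passed and 1079 had an unadjusted p under 0.05. Single members with a difference near 0 cannot be given a direction from 2 arrays per group.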
